A study of Sus scrofa with 102 samples.

Results

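The solute carriers are the membrane proteins that move sugars, amino acids, ions, metals, nucleotides and vitamins into cells and between their compartments. Here they were taken as the array probes with a single gene symbol that starts with SLC or SLCO and a family number, with the brightest probe kept for each gene. The rule gave 41 genes out of 2201 with a single symbol, read by 47 probes. For 38 of them the symbol names a carrier or its partner subunit, whereas SLC2A4RG, SLC9A3R1 and SLC9A3R2 carry the name only because they regulate or anchor a carrier.

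In skeletal muscle, glucose enters through GLUT transporters such as SLC2A4 (GLUT4), creatine through SLC6A8, and lactate leaves fast fibres through SLC16A3 (MCT4). The SLC25 family works mainly in the inner mitochondrial membrane, where SLC25A5 and SLC25A6 exchange ADP for ATP, SLC25A11 exchanges oxoglutarate for malate and SLC25A3 imports phosphate. SLC38A9 sits in the lysosomal membrane, where it senses arginine for the growth kinase mTORC1.

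RNA from the Longissimus dorsi, the long back muscle, of 102 Iberian x Landrace backcross pigs was hybridised to Affymetrix porcine arrays, 1 per pig. The pigs were fed ad libitum, and the labels name no experimental treatment. They were 55 females and 47 males. Batch 2, the largest of the 3 slaughter batches, had 70 pigs (36 females, 34 males), while batch 1 had 14 (8 females, 6 males) and batch 3 had 18 (11 females, 7 males). Age ran from 171 to 184 days and carcass weight from 43.6 to 97.8 kg. Batch 1 was also the youngest, with a mean age of 175 days against 181 days in both batch 2 and batch 3, so slaughter batch and age were partly tied, and mean carcass weight was 65.9, 73.3 and 64.6 kg in batches 1, 2 and 3. Each pig is a separate animal, but backcross pigs of the study shared sires and dams. The pedigree was not used here, so the SEs and p-values below treat the pigs as unrelated.

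The values are GCRMA intensities on the log2 scale, for 5449 probes after control probes were left out. The median of an array ran from 6.19 to 6.69. The probe EIF1AY, a gene of the Y chromosome, went against the labelled sex in 3 arrays, all of batch 2, and the 5 arrays that correlated least with the others were 1 of batch 1 and 4 of batch 3. The difference between the 5 prime and middle actin probes, a sign of RNA or labelling quality, had batch means of -1.28, -0.80 and -1.32 (batches 1 to 3). The tissue label could be checked on 4 of 19 listed skeletal muscle markers (DES, PYGM, TPM2 and ACTN2), whose means ran from 12.8 to 15.2. Precision is set by how many pigs each batch and sex holds.

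The first question was at what level each carrier was read and how widely it varied. Mean intensity ran from 2.98 for SLC25A3 to 11.0 for SLC25A6, and the SD over the pigs ran from 0.479 for SLC25A46 to 1.5 for SLC3A2. Probes differ in how brightly they bind, so the intensities of different genes do not rank their transcripts. The table is not a random sample of probes either, because the study kept those that varied: 40 of the 41 genes passed its stated rule of more than 20% of arrays beyond 1.5-fold of the median when it was applied again here.

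**Figure D1:**
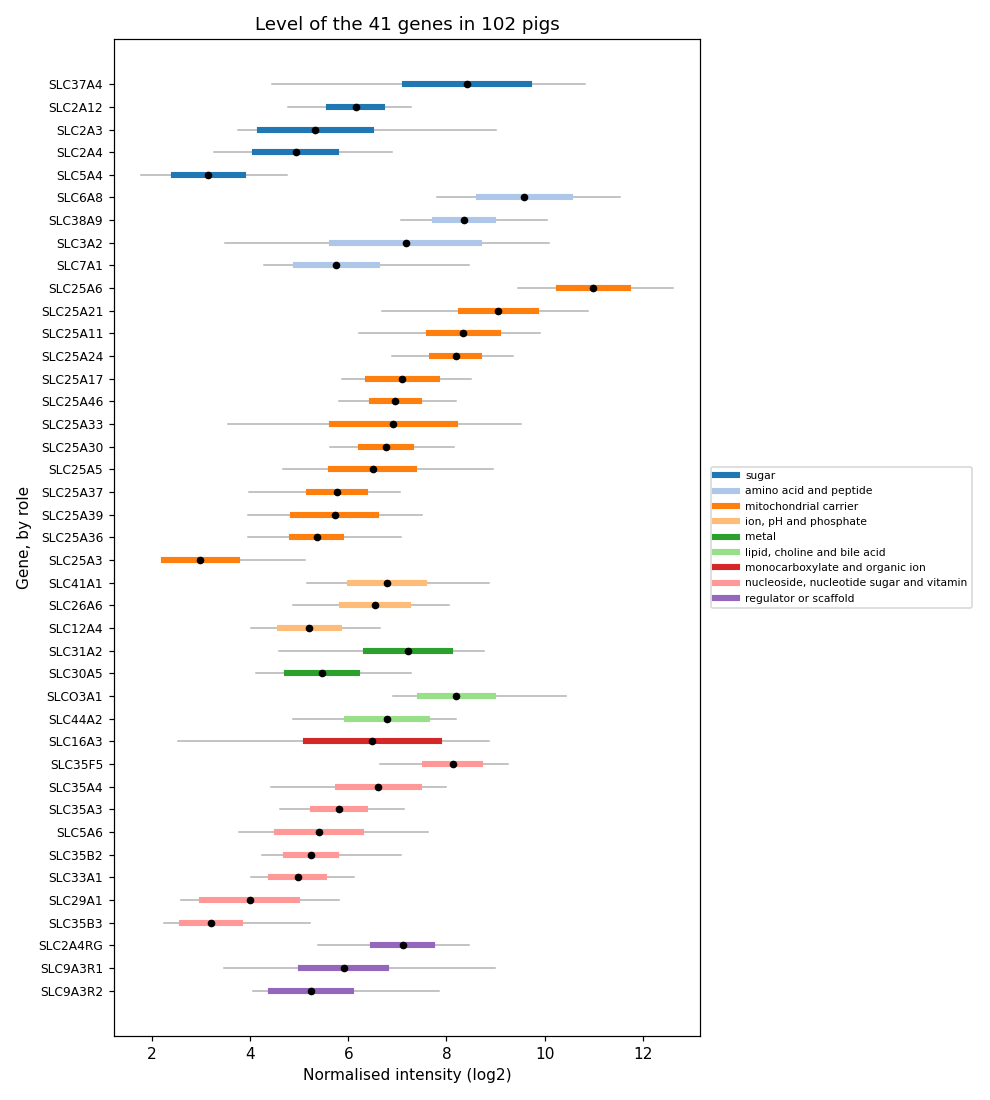
Normalised log2 intensity (x axis) of each of the 41 genes (y axis, grouped and coloured by role) in 102 pigs. Points are means, thick bars 1 SD to each side and thin lines the lowest and highest pig; means run from 2.98 for SLC25A3 to 11.0 for SLC25A6, and probes of different genes are not comparable in amount.

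Among the sugar carriers, SLC37A4, which takes glucose 6-phosphate into the endoplasmic reticulum, read 8.42 ± 1.26 (SD, n = 102), SLC2A12 (GLUT12) read 6.15 ± 0.545 and SLC5A4, a relative of the sodium-glucose cotransporters, read 3.15 ± 0.711. SLC2A4 read 4.92 ± 0.827. Among the amino acid carriers, SLC6A8 read 9.59 ± 0.932, SLC38A9 read 8.36 ± 0.590 and SLC7A1, the cationic amino acid transporter, read 5.76 ± 0.826. SLC3A2, the heavy chain that brings several amino acid exchangers to the surface, had the widest spread of all, from 3.48 to 10.1.

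The 13 genes of the SLC25 family formed the largest role. SLC25A6 read 11.0 ± 0.695, SLC25A21, the oxodicarboxylate carrier, read 9.06 ± 0.756, and SLC25A3 read 2.98 ± 0.748. The SLC25A3 probe lay at percentile 0.863 of all probes by mean, near the floor of the array, so its differences are those of a dim probe. SLC25A17 belongs to the family but sits in the peroxisome, and read 7.10 ± 0.699.

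Of the ion carriers, the magnesium transporter SLC41A1 read 6.79 ± 0.759, the anion exchanger SLC26A6 6.54 ± 0.673 and the potassium-chloride cotransporter SLC12A4 5.21 ± 0.599. The copper carrier SLC31A2 read 7.22 ± 0.854 and the zinc carrier SLC30A5 5.47. The organic anion carrier SLCO3A1 read 8.20 ± 0.748 and the choline transporter-like SLC44A2 6.80 ± 0.816. SLC16A3 ranged from 2.53 to 8.86, around a mean of 6.49. In the nucleotide and vitamin group, the orphan SLC35F5 read 8.13 ± 0.561, SLC35A4 6.61 ± 0.828 and SLC35B3, which carries the sulphate donor PAPS, 3.21 ± 0.588.

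For 6 genes a dimmer second probe was present (SLC31A2, SLC35A4, SLC35F5, SLC37A4, SLC41A1 and SLC44A2). After sex, batch and weight were removed, the correlation between the probes of a gene ran from 0.544 for SLC41A1 to 0.824 for SLC35F5, across the 102 pigs. The second probes moved with batch in the same direction as the first ones in all 6 genes.

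The second comparison was between slaughter batches, with sex and carcass weight in the model. Among the carriers that differed, falls in batches 1 and 3 against batch 2 outnumbered rises. The moderated F test of limma called 32 of the 41 genes (78%), but the same test called 86.6% of all 5449 probes, so the share of carriers called was no higher than that of the table. In direction, 20 genes fell in both batch 1 and batch 3 against batch 2, which is 48.8% of the 41 against 38.6% of all probes. Against batch 2, 21 genes fell and 7 rose in batch 1 (41.5% and 32.7% of all probes), and 22 fell and 10 rose in batch 3 (45.3% and 36.2%). Of these, 7 rose in both batches, 17.1% against 28.4% of all probes. The median difference from batch 2 over the 41 genes was -0.44 in batch 1 and -0.54 in batch 3, against -0.11 and -0.17 over all probes.

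SLC38A9, the lysosomal arginine sensor, had the largest F. Its lowest, median and highest values were 8.07, 8.71 and 9.29 in batch 1, 7.07, 8.07 and 9.04 in batch 2, and 8.77, 9.13 and 10.04 in batch 3. Batch 3 lay almost wholly above batch 2, with a small overlap, and batch 1 lay between them. The difference from batch 2 was 0.70 (SE 0.112, adjusted p = 4.66e-08, limma) in batch 1 and 1.13 (SE 0.104, adjusted p = 2.20e-17, limma) in batch 3.

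The creatine transporter SLC6A8 went the other way. Its lowest, median and highest values were 8.35, 8.68 and 10.22 in batch 1, 8.08, 10.05 and 11.53 in batch 2, and 7.80, 8.35 and 9.25 in batch 3. The fall from batch 2 was -1.25 (SE 0.183) in batch 1 and -1.63 (SE 0.169) in batch 3. The upper pigs of batches 1 and 3 overlapped the lower part of batch 2. SLC3A2 fell too, with a difference of -1.91 (SE 0.298) in batch 1 and -2.55 (SE 0.275) in batch 3, with medians of 5.93, 7.86 and 5.34 in batches 1, 2 and 3.

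SLC16A3, the lactate exporter, had medians of 5.60, 7.22 and 4.68 in batches 1, 2 and 3, and its range in batch 2, from 4.21 to 8.86, overlapped both others. Its differences were -1.69 (SE 0.293) in batch 1 and -2.24 (SE 0.270) in batch 3. The glucose transporter SLC2A4 fell as well, at -0.97 (SE 0.190) and -1.05 (SE 0.175). The other GLUT genes, SLC2A3 and SLC2A12, missed the threshold in the F test of limma, with adjusted p-values of 0.0999 and 0.0566. In batch 3 against batch 2, SLC2A12 was called higher, by 0.33 (SE 0.135, adjusted p = 0.0203, limma). That call was lost with the actin difference in the model (adjusted p = 0.0931, limma).

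Of the 13 SLC25 genes, 8 were called by the F test (61.5%, against 86.6% of all probes), among them the peroxisomal SLC25A17. SLC25A6, SLC25A11, SLC25A37, the iron importer mitoferrin, and SLC25A39, a glutathione carrier, fell in both batches. SLC25A6 had medians of 10.28, 11.34 and 10.18 in batches 1, 2 and 3 and differences of -0.94 (SE 0.143) and -0.96 (SE 0.132). SLC25A3 and SLC25A21 rose in both. SLC25A3 had medians of 3.35, 2.55 and 3.99, with most batch 2 pigs crowded close to the floor. SLC25A5, the other ADP/ATP exchanger among the 41 genes, was not called, at -0.20 (SE 0.226) and -0.24 (SE 0.209).

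SLC30A5 had medians of 5.95, 5.15 and 6.59 in batches 1, 2 and 3, and rose by 0.76 (SE 0.132) and 1.33 (SE 0.122). SLCO3A1 rose by 0.78 (SE 0.149) and 1.37 (SE 0.138). SLC44A2 fell, at -1.33 (SE 0.162) and -1.30 (SE 0.150), and its second probe gave -2.06 and -2.02. The ion carriers SLC12A4, SLC26A6 and SLC41A1 all fell in both batches, as did 38.6% of all probes.

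Of the 8 genes of the nucleotide and vitamin group, 5 fell in both batches and 2 rose in both, against 38.6% and 28.4% of all probes. The differences in batches 1 and 3 were -1.18 (SE 0.173) and -1.22 (SE 0.160) for SLC35A4 and -0.80 (SE 0.122) and -0.89 (SE 0.113) for SLC35F5. SLC29A1, the equilibrative nucleoside transporter, gave -1.29 (SE 0.199) and -1.33 (SE 0.184). SLC29A1 had medians of 2.88, 4.20 and 2.80, so most pigs of batches 1 and 3 were read close to the floor. SLC33A1, which carries acetyl-CoA into the Golgi and endoplasmic reticulum, and SLC35B3 rose.

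**Figure D2:**
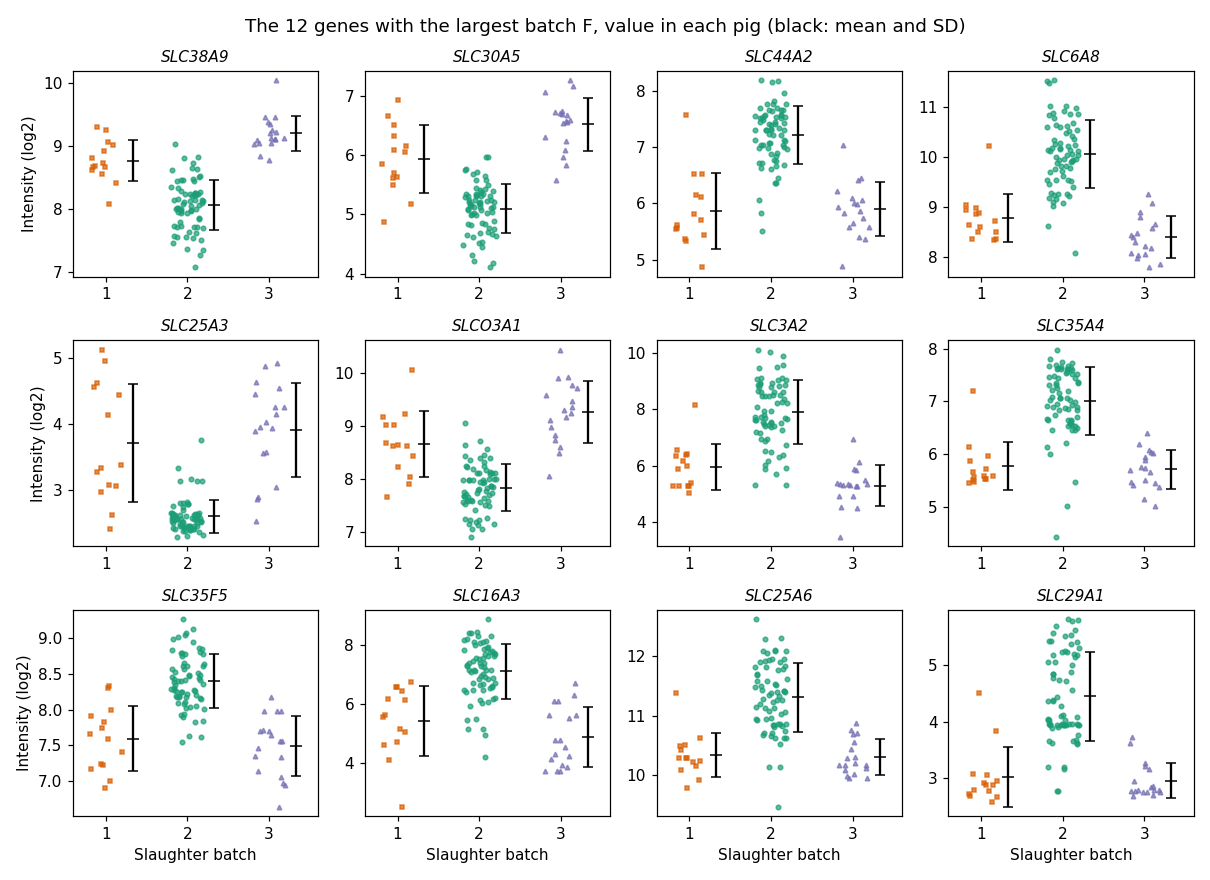
Normalised log2 intensity (y axis) in each pig, by slaughter batch (x axis; 14, 70 and 18 pigs), for the 12 genes with the largest batch F. Black bars are means with 1 SD to each side; SLC38A9, SLC30A5, SLC25A3 and SLCO3A1 lie higher in batches 1 and 3, and the other 8 lie lower.

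Batches 1 and 3 could also be set against each other. Here 5 genes were lower in batch 1 (12.2%, against 8.59% of all probes) and 1 was higher (2.44%, against 8.18%). The 1 higher gene was SLC37A4, with medians of 8.51 in batch 1 and 6.82 in batch 3. SLC38A9, SLC30A5, SLCO3A1, SLC7A1 and SLC25A33, a pyrimidine nucleotide carrier, were the lower ones.

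The actin difference moved with batch, as given above. With it added to the model, 29 carriers were called, against 76.9% of all probes, and the falls of SLC16A3 became -1.10 and -1.59. SLC25A21 (adjusted p = 0.0718, limma), SLC2A4RG (0.269) and SLC9A3R2 (0.0654) then lost their call in the F test. The batch 1 fall was no longer called for SLC25A11 (-0.33, adjusted p = 0.0814, limma), SLC25A37 (-0.32, adjusted p = 0.0564, limma), SLC35B2 (adjusted p = 0.0906, limma) or SLC2A4RG (adjusted p = 0.166, limma). The part of RNA quality in the batch differences was not tested further. Levels of fast-fibre genes moved with batch too: the summed intensity of ATP2A1 and PYGM, the 2 of 17 listed genes that were measured, ran from 11.2 to 14.9 in batch 1, from 12.7 to 15.5 in batch 2 and from 10.9 to 14.1 in batch 3. In whole muscle, fewer fibres of a type and less RNA per fibre cannot be told apart.

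The third comparison was between females and males. Females had lower readings on the probes of SLC25A5 and SLC25A6, the ADP/ATP exchangers among the 41 genes. They also had lower readings of SLC7A1, SLC3A2, SLC41A1 and SLC12A4, among others. Their higher readings were those of SLC2A12 and, in batch 2, SLC38A9. The model called 12 of the 41 genes, 29.3% against 26.1% of all probes. Of these, 10 were lower in females (24.4% against 14.4% of all probes) and 2 were higher (4.88% against 11.7%).

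SLC25A5, an X-linked gene, ranged from 4.67 to 7.94 around a median of 6.19 in females and from 5.32 to 8.95 around 6.91 in males. The groups overlapped widely, and the difference was -0.81 (SE 0.152, adjusted p = 4.16e-05, limma). Its near-identical relative SLC25A6 had medians of 10.75 in females and 11.42 in males, and a difference of -0.46 (SE 0.0965, adjusted p = 2.46e-04, limma). Without probe sequences it could not be checked whether the 2 probes share signal, so whether both genes differ is uncertain. SLC2A12 went the other way, with medians of 6.34 in females and 6.03 in males, and a difference of 0.49 (SE 0.0984, adjusted p = 9.84e-05, limma).

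Among the amino acid carriers, the female minus male difference was -0.48 (SE 0.137) for SLC7A1, -0.57 (SE 0.200) for SLC3A2 and 0.21 (SE 0.0754) for SLC38A9, all called. SLC6A8, also X-linked, was not called, at -0.28 (SE 0.123, adjusted p = 0.0855, limma). The other called differences were -0.31 for SLC25A36, -0.60 for SLC25A33, -0.29 for SLC25A11, -0.36 for SLC41A1, -0.28 for SLC12A4 and -0.39 for SLC9A3R2. In the nucleotide and vitamin group the lowest adjusted p was that of SLC5A6 (0.0654, limma). Within batch 2 alone 15 carriers were called, against 32.4% of all probes. A sex-by-batch term in limma called 0 carriers (lowest adjusted p = 0.464, that of SLC38A9), and batches of 14 and 18 pigs test it weakly. At an unadjusted p under 0.05 were 2 carriers, SLC38A9 and SLC5A6. The SLC38A9 difference was 0.36 in batch 2 but -0.15 in batch 1 and -0.16 in batch 3. SLC25A11 (0.12 in batch 1) and SLC9A3R2 (0.02 and 0.04 in batches 1 and 3) also turned positive there. The other called genes kept 1 sign across batches. Without the 3 arrays whose EIF1AY went against the label, 9 were called, against 25.4% of all probes. SLC38A9 (adjusted p = 0.0507, limma), SLC25A11 (0.0522) and SLC12A4 (0.0602) were the ones lost.

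**Figure D3:**
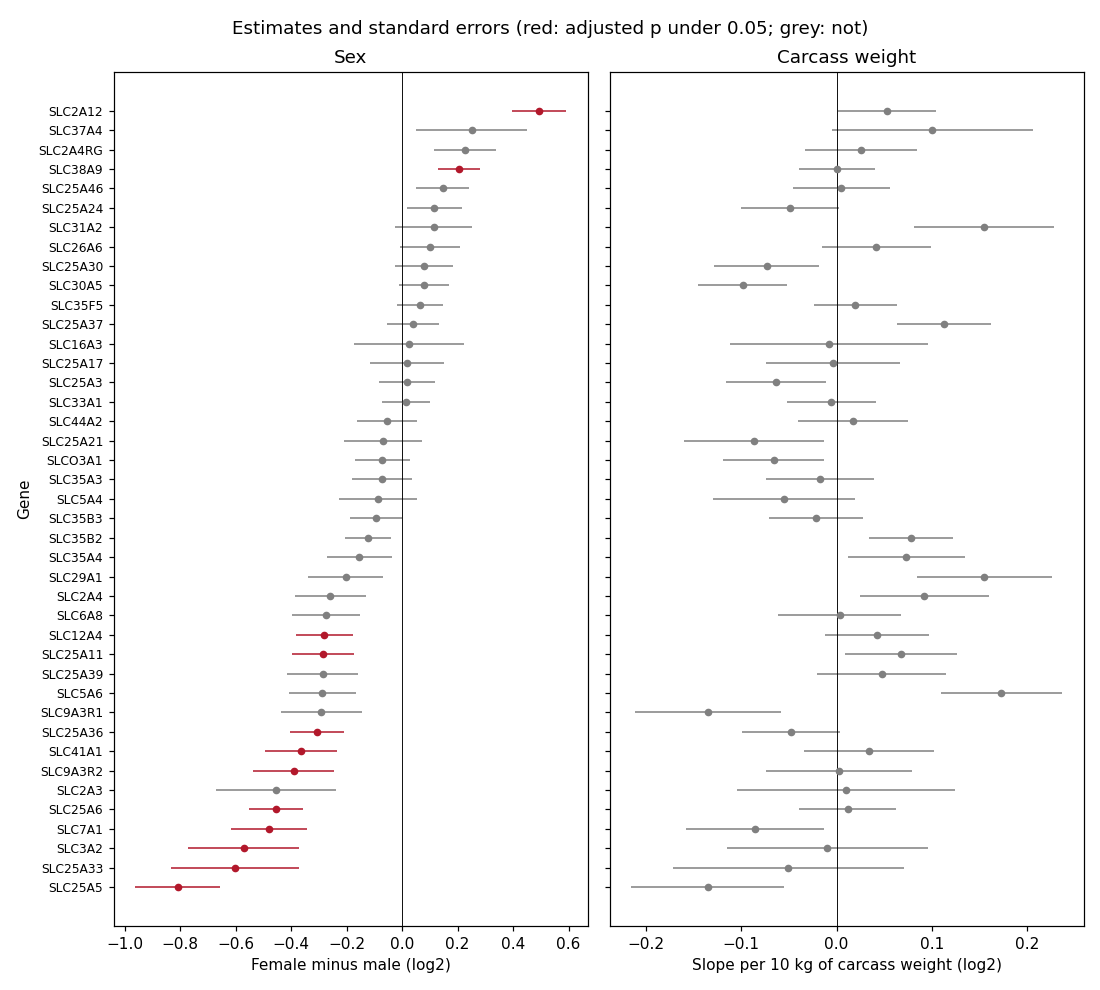
Estimated difference between females and males (left) and slope per 10 kg of carcass weight (right), on the log2 scale, for each of the 41 genes (y axis), with bars of 1 SE. Red marks an adjusted p under 0.05, found for 12 genes for sex and for 0 for weight.

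The fourth comparison was with carcass weight. limma called 0 of the 41 genes and 0% of all probes, and at an unadjusted p under 0.05 there were 5 carriers and 589 probes. The smallest p was that of SLC5A6, the multivitamin transporter, with a slope of 0.17 per 10 kg (SE 0.0635, 95% interval 0.047 to 0.299, adjusted p = 0.365, limma). SLC25A37 had a slope of 0.11 (95% interval 0.0152 to 0.210) and SLC29A1 one of 0.16 (95% interval 0.0152 to 0.295). With 2 principal components of all probes added, 2 carriers were called (SLC5A6 and SLC29A1), against 4.73% of all probes. Those components came from residuals after sex, batch and weight, so they left each slope unchanged and altered only its error. Without sex and batch in the model 26 were called, against 62.6%, and weight then carries the batch difference as well. For the creatine transporter SLC6A8 the interval ran from -0.125 to 0.132.

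The last question was which carriers moved together from pig to pig once sex, batch and weight were removed. A pair was counted where limma called it both ways, with each gene in turn as the predictor, with adjustment over all 223362 tests of a carrier against every probe. This held for 373 of 820 pairs (45.5%), against 40.6% of all tests, each of which runs 1 way. Of them 219 moved in the same direction (26.7%, against 21.3% of all tests) and 154 in opposite directions (18.8%, against 19.3%). A correlation of size 0.5 or more was found in 12.8% of the carrier pairs and in 5.49% of all probe pairs. The genes of a pair share arrays, so array quality is common to both.

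**Figure D4:**
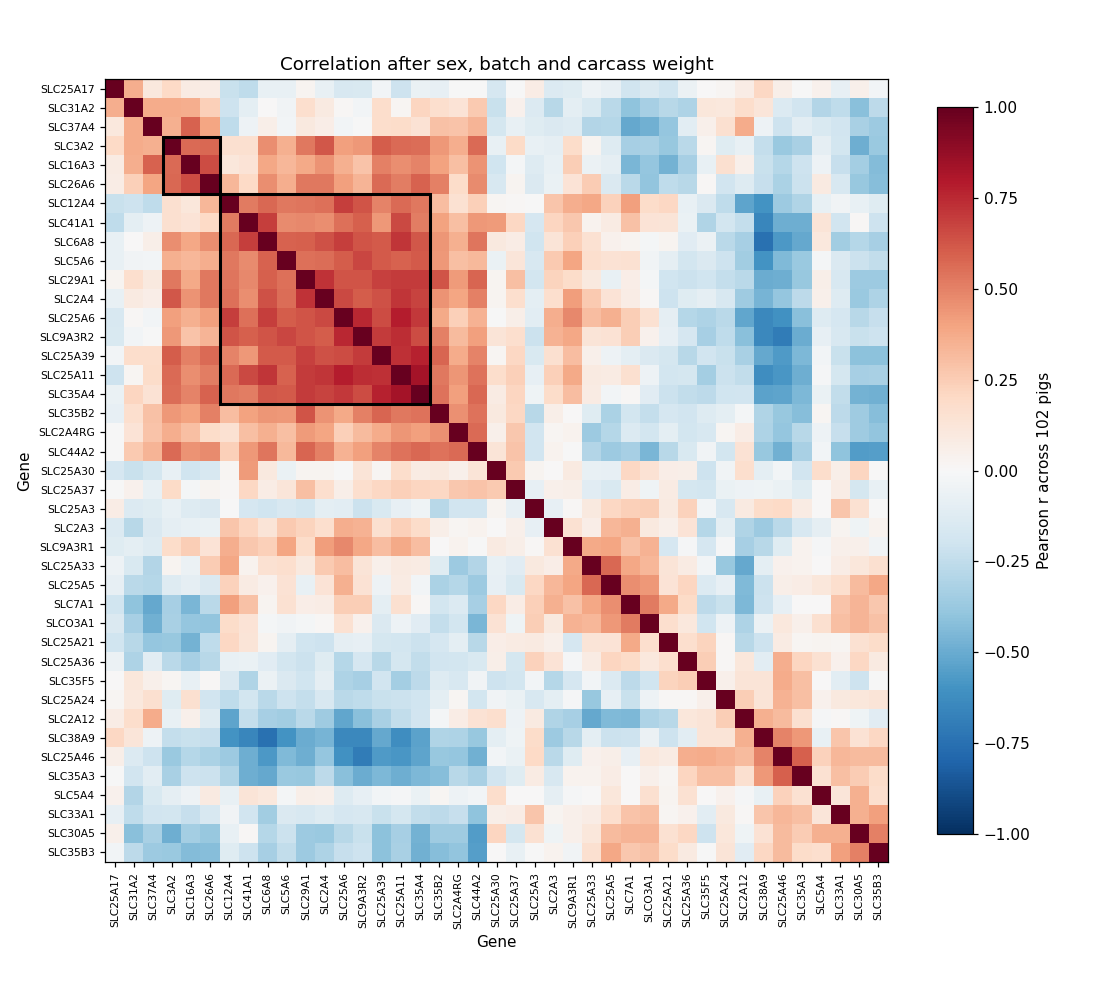
Pearson r between the 41 genes (both axes, in the order of average linkage) across 102 pigs, after sex, batch and carcass weight were removed; red is positive and blue negative. Boxes mark the groups of 11 and of 3 genes, and SLC38A9 and SLC25A46 are blue against most of the larger group.

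Average linkage put 11 genes in 1 group: SLC12A4, SLC25A11, SLC25A39, SLC25A6, SLC29A1, SLC2A4, SLC35A4, SLC41A1, SLC5A6, SLC6A8 and SLC9A3R2. Correlations within it ran from 0.431 to 0.833 with a median of 0.628. The closest other genes to its mean were BSG (r = 0.892), the chaperone of the lactate transporters, then MRPL28, CTSD, DES and ST6GALNAC4 (r = 0.873 to 0.881). SLC16A3, SLC26A6 and SLC3A2 formed a group of 3, with correlations from 0.563 to 0.649, and its closest genes were FXR2 (r = 0.834), ATP2A1 (r = 0.801), the calcium pump of fast fibres, GAPDH, CDC34 and COPS7A. Linkage groups were formed from these data and carry no test.

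The highest correlation was between SLC25A11 and SLC35A4, at r = 0.833 (rho = 0.769) across 102 pigs. Without the 2 pigs farthest from the SLC25A11 median it was 0.791, and it was 0.823, 0.887 and 0.214 within batches 1, 2 and 3. SLC25A11 was also in the pairs with SLC25A6 (r = 0.783), SLC9A3R2 (r = 0.741), SLC25A39 (r = 0.727), SLC2A4 (r = 0.718) and SLC6A8 (r = 0.713). The remaining high pairs were SLC25A39 with SLC35A4 (r = 0.773), SLC25A6 with SLC9A3R2 (r = 0.755), SLC29A1 with SLC2A4 (r = 0.723) and SLC25A6 with SLC35A4 (r = 0.709). In batch 3, SLC25A11 with SLC25A39 came to -0.0856.

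SLC38A9 was in 4 of the 5 lowest pairs. As the predictor it was called opposite to 17 of its 40 partners, as was SLC2A12, and SLC25A46 to 18. These genes were opposed to many other probes too: 32.8% of all probes for SLC38A9, 21.0% for SLC2A12 and 29.8% for SLC25A46. With SLC6A8, SLC38A9 gave r = -0.742 (rho = -0.726), which was -0.722 without the 2 farthest pigs and -0.745, -0.762 and -0.476 within batches 1, 2 and 3. SLC38A9 also opposed SLC41A1 (r = -0.652), SLC25A6 (r = -0.647) and SLC9A3R2 (r = -0.641). SLC25A46, an outer mitochondrial membrane protein of mitochondrial shape, opposed SLC9A3R2 (r = -0.699). Each of the 15 pairs named here had the smallest p that 100000 two-sided permutations can give for both r and rho (1e-05), and an adjusted p of at most 2.28e-10 in limma. The pairs were picked for the size of r in these same pigs, so such p-values follow from the choice and are no separate support.

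**Figure D5:**
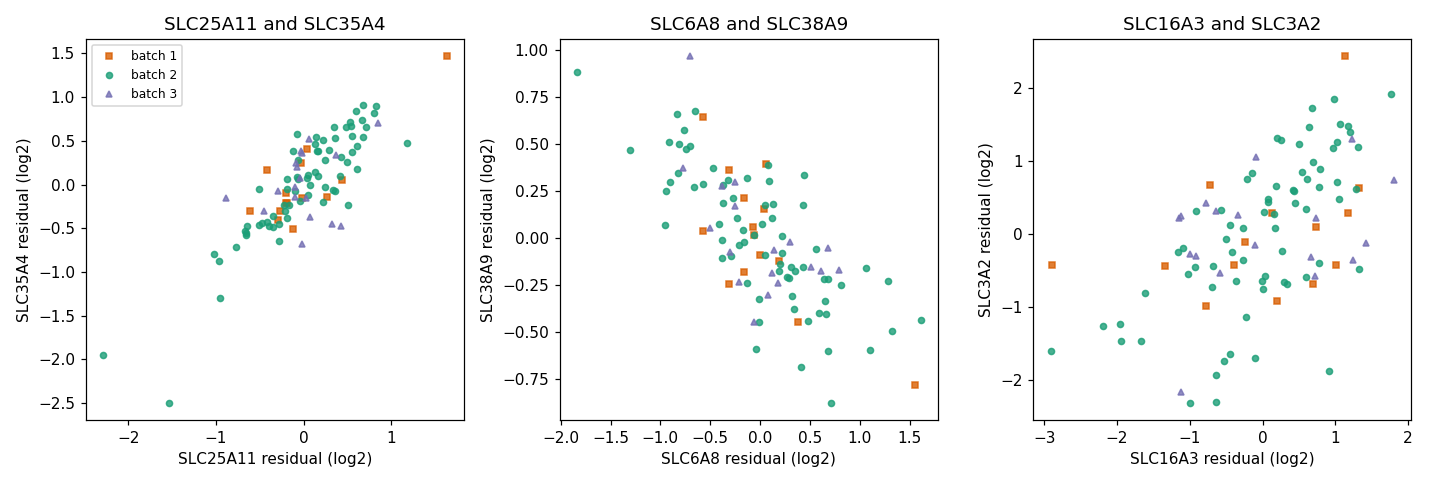
Residual log2 intensity after sex, batch and carcass weight for 3 pairs of genes, 1 point per pig, coloured by slaughter batch. SLC25A11 and SLC35A4 rise together (r = 0.833), SLC38A9 falls as SLC6A8 rises (r = -0.742), and SLC16A3 and SLC3A2 rise together (r = 0.563).

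Much of this joint movement ran along the main axis of the whole table. The first principal component of the residuals of all probes held 18% of their variance, and the mean of the 11-gene group correlated with it at 0.897 and with the actin difference at 0.420. With the first 2 components in the model 61 pairs were called (7.44%, against 8.28% of all tests), and the median correlation in the 11-gene group was 0.167. Of the 373 pairs called without the components, 40 were still called when tested 1 way, so the 61 include pairs not called before. Of the 15 pairs named above 10 were still called when tested 1 way, a looser rule than that of the 61. Among them were SLC38A9 with SLC6A8 at -0.525 and SLC25A11 with SLC35A4 at 0.523. The other 5 were not: SLC25A39 with SLC35A4 (r = 0.262), and SLC25A11 with SLC25A39 (r = 0.223), SLC2A4 (r = 0.275) and SLC6A8 (r = 0.279), and SLC25A6 with SLC38A9, which went from -0.647 to -0.209. The part of array quality in these components was not tested.

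Not all family members moved with each other. Among the 78 pairs of SLC25 genes, 17 were called (21.8%, against 40.6% of all tests), 10 in the same and 7 in opposite directions, and r ran from -0.609 to 0.783. SLC25A5 and SLC25A6 correlated at 0.355. SLC2A12 and SLC2A4, both glucose transporters of muscle, lay apart in the linkage. As the predictor, SLC5A4 was called with 2 of its 40 possible partners, 1 in the same and 1 in the opposite direction. Over all probes its shares were low as well, at 2.81% and 1.25%.

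Of 40 listed partners of the carriers (pumps, channels and enzymes that handle the same substrates), 12 were measured. In batch 1, 1 rose and 5 fell (41.7%, against 41.5% of all probes), and in batch 3, 5 rose and 5 fell (41.7% lower, against 45.3%), with 4 lower in females (33.3%, against 14.4%). Among those that fell, the differences in batches 1 and 3 were -0.80 and -1.03 for BSG and -0.86 and -1.11 for ATP1B4. They were -1.47 and -1.90 for GYS1, the muscle glycogen synthase, and -0.81 and -1.09 for CPT1B, which commits fatty acids to oxidation. VDAC2, an outer mitochondrial membrane channel, gave -0.66 and -0.91. ABCA1 rose in both, at 0.76 and 1.13, and ABCG2, AQP1, LDHB and GLUL rose in batch 3 (by 0.33 to 0.58). Of these, AQP1, LDHB and GLUL missed the threshold in the F test of limma over the 3 batches, with adjusted p-values of 0.0938, 0.0633 and 0.0637. Of 25 listed genes of the amino acid deprivation response 9 were measured, with 3 up and 4 down in batch 1 (44.4% down), 1 up and 6 down in batch 3 (66.7% down), and 1 higher and 3 lower in females (33.3% lower). Of 17 glucocorticoid and fasting genes 11 were measured, with 7 down in batch 1 (63.6%), 1 up and 6 down in batch 3 (54.5% down), and 6 lower in females (54.5%). The part of these genes in the carriers' sex and batch differences was not tested.

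Of the 4 skeletal muscle markers measured, 3 were down in both batches (75%): the differences in batches 1 and 3 were -1.03 and -1.28 for DES, -0.56 and -1.07 for TPM2, and -1.63 and -1.82 for PYGM. Their summed intensity had medians of 15.4, 16.3 and 15.0 in batches 1, 2 and 3, and 0 of the 4 were called for sex. Markers of other cells were counted the same way, against 32.7% of all probes up and 41.5% down in batch 1, and 36.2% up and 45.3% down in batch 3. Of the slow-fibre list 9 of 14 were measured, with 3 up in batch 1, and 4 up and 2 down in batch 3, and both measured fast-fibre genes were down in both batches. Of the fibroblast list 7 of 9 were measured, with 5 up and 1 down in batch 1 and 3 up and 1 down in batch 3, and its summed intensity had medians of 13.7, 12.9 and 13.3 in batches 1, 2 and 3. Of 7 adipocyte genes 3 were down in batch 1, and 1 was up and 2 down in batch 3. Of 7 endothelial genes 2 were up and 2 down in batch 1 and 4 down in batch 3, and of 4 macrophage genes 3 were up in batch 1 and 1 was up and 1 down in batch 3. For sex, 3 of the 7 endothelial genes (42.9%) and 1 slow-fibre gene (11.1%) were lower in females, against 14.4% of all probes. Higher in females were 2 of 7 adipocyte and 2 of 7 fibroblast genes (28.6% each), against 11.7% of all probes. The adipocyte genes were SCD and ADIPOQ, and ADIPOQ had a mean of 2.95, at percentile 0.752 of all probes and near the floor. No red blood cell or lymphocyte marker of the lists was measured, and the part of other cells in the carrier differences was not tested.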

How the data were processed

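Total RNA of Longissimus dorsi was hybridised by the authors to Affymetrix porcine arrays, and the deposited values are log2 intensities after GCRMA, from which the authors kept probes that varied between arrays. Their normalization was kept. Gene names came from the platform annotation, and all 41 gene symbols matched RefSeq by gene ID. No genome build is given for the array probes, so no positions are printed.

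Control probes (44) were left out. Each probe was fitted with limma 3.58.1 in R 4.3.3 on sex, slaughter batch and carcass weight per 10 kg. The relatedness term of the paper's model was left out. P-values were adjusted by Benjamini-Hochberg over all 5449 probes, with a threshold of 0.05. For pairs, each probe was regressed on each carrier with the same covariates, and the named pairs were permuted 100000 times on the residuals. Groups came from average linkage on 1 minus r, joined below 0.5. The tests were checked on simulated data. Named genes were, by rule, the 12 largest batch F values, the 3 smallest weight p-values, up to 8 sex calls, the 10 highest and 5 lowest called pairs, and the highest and lowest means of each role. SLC2A4, SLC16A3 and SLC3A2 were named whatever their values. Any other gene named was chosen after its values were seen. The members and gene lists were chosen with earlier results of these data known. Alternatives covered normalization, age, principal components, actin difference, array weights, dim probes, all probes of a gene, left-out arrays, batch 2 alone and batch as a random block.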

Additional observations from a re-analysis of the deposited data

How the results depend on the processing

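Counts for slaughter batch ran from 29 to 38 and for sex from 9 to 17 over the alternatives that were run for them. All stayed within 1.5 times the values above, and no named gene or pair reversed. The 38 was a count over all 47 probes of the 41 genes. The 2 principal components came from residuals after sex, batch and weight. Adding them could change the error of those estimates but not the estimates. The number of carriers changing with carcass weight was 0, but 2 with 2 principal components added, and 26 with sex and batch left out of the model, where weight also carries the batch difference. The number of pairs moving together was 373, but 61 with 2 principal components added. Quantile normalization moved the median difference of all probes from -0.11 to 0.01 in batch 1 and from -0.17 to -0.01 in batch 3. With batch and weight left out of the model, SLC7A1 (adjusted p = 0.0679, limma), SLC38A9 (0.0683) and SLC25A33 (0.0533) lost their sex call, and without the 3 arrays against their sex label SLC12A4, SLC25A11 and SLC38A9 did. SLC25A11 also lost it with quantile normalization, with age added and without the 5 arrays that correlated least, and SLC25A33 with quantile normalization and in batch 2 alone. The cause was not tested. Dim probes such as SLC25A3 and SLC29A1 limit what can be read of their lower values.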
